A study of Mus musculus with 20 samples.

Results

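Marcks and Marcksl1 are the 2 genes of the MARCKS family, and both mRNAs had sites of the RNA-binding protein HuD in their 3′ UTRs in NSC-34 cells. They were taken by symbol from each table of the study, as 2 of 14924 genes with counts in total and polysomal RNA, 2 of 9621 genes with 3′ end counts, and 2 of 1299 protein coding genes with HuD sites. Marcks was chosen by its HuD sites and its polysomal and total RNA values, and these are therefore given for it as a description with no test. Marcksl1 was taken in as the other family member, and its HuD sites are likewise a description.

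NSC-34 is a mouse motor neuron-like line, here a Trex derivative carrying an inducible His-HA-tagged HuD, the human protein encoded by ELAVL4, delivered by lentivirus. The 20 samples comprised 3 CRAC libraries from HuD cells and 3 from control Trex cells (the series names an empty vector), 2 HuD and 2 control libraries each of total RNA (RNA-Seq) and polysomal RNA (POL-Seq), and 3 HuD and 3 control libraries of mRNA 3′ ends. For all of these but CRAC, the labels give induction of HuD with tetracycline at 2 µg/ml for 48 h, and no treatment for the control cells. The study's methods instead name doxycycline at 2 µg/ml as the inducer of its inducible lines. If the control cells received none, the inducer and HuD cannot be told apart in these libraries, and "with HuD" below covers both. For CRAC, the labels give 10 µg/ml tetracycline for 24 h in both HuD and control cells. The study's results text instead gives doxycycline at 2 µg/ml for 48 h for CRAC, and the labels are followed here. The samples are cultures of a single engineered line, so the errors below cover the spread between libraries of that line.

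The total counts were 21296012 to 36284728 per library for RNA-Seq and POL-Seq and 12986862 to 15751036 for 3′ ends. Elavl4, the mouse gene to which the human HuD reads could be assigned, stood at 87.8 ± 13.6 CPM in control and 224 ± 17.6 CPM in HuD total RNA (CPM, reads of a gene scaled by TMM to a common library total; SD, n = 2). Its log2 change of 1.35 had an adjusted p of 0.0866 in edgeR's quasi-likelihood test, above the threshold of 0.05. In the 3′ end libraries Elavl4 stood at 64.9 ± 22.9 CPM in control and 46.1 ± 12.8 CPM in HuD cells (SD, n = 3). The log2 difference there was -0.49, with an adjusted p of 0.922 by edgeR. The cloning primer given by the study ends at the HuD stop codon, so the human insert carries no 3′ UTR of its own gene. Where its transcript ends is not stated in the sources used here, so these counts do not check the labels of the 3′ end libraries. Of 9 neuronal and motor neuron markers, 8 were listed in the count table, Tubb3 at 599 and Prph at 1203 CPM in control total RNA among them, while Chat stood at 0.524 CPM and Mnx1 was not listed. No microglia marker of 3 was listed, and Gfap, the only astrocyte marker listed, was at 0.574 CPM. The oligodendrocyte marker Mbp stood at 5.81 CPM and the fibroblast marker Pdgfra at 23.5 CPM. In such bulk RNA, fewer cells with an mRNA and less of it per cell cannot be told apart.

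MARCKS and MARCKSL1 are acidic proteins that lie under the plasma membrane, held there by an N-terminal myristoyl group and a basic effector domain. The effector domain binds the phospholipid PIP2, actin and calmodulin, and phosphorylation by protein kinase C releases it from the membrane. In neurons they are known for roles in neurite outgrowth and dendritic spines. HuD belongs to the ELAV family, which binds U-rich elements in 3′ UTRs, and a CUUU repeat in the Marcks 3′ UTR has been used as a binding element of this family.

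Marcks lies on chromosome 10 (GRCm38, chr10:37133375-37138920, minus strand) and Marcksl1 on chromosome 4 (chr4:129513581-129515985, plus strand). Each has 2 exons. The transcript used for Marcks has 4048 nt, with a coding sequence of 930 nt and a 3′ UTR of 2733 nt. That of Marcksl1 has 1605 nt, with a coding sequence of 603 nt and a 3′ UTR of 753 nt. The Marcks 3′ UTR was longer than the median of 1194 nt over 12335 mouse 3′ UTRs and that of Marcksl1 was shorter.

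CRAC crosslinks a tagged protein to RNA and reads the bound fragments, and a deletion in a read marks a crosslinked base. The authors listed for each site a window of 7 or 8 nt, the reads covering it and the reads with a deletion in it, pooled over the HuD libraries. All listed windows of both genes lay in the 3′ UTR, and none had a covering read in control cells, where 3.70% of mRNA windows had one. The authors penalised positions with control reads before listing, so this absence follows in part from that selection. The 5 windows of Marcks are shown first, in order from the stop codon, because they are the places where HuD was crosslinked; capitals mark the listed window and small letters the 11 nt on each side.

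Marcks site 1: uugauuuuaaaGAUUUUUuuuuaaauuuc
Marcks site 2: cuuucuuucuuUCUUUUUuuuuuuaaaga
Marcks site 3: aaguuguauagGCUUUAUuguuuauugcu
Marcks site 4: gaagcacaugaAGUUUGCaagucuccacc
Marcks site 5: cgagaauaaguCCUUUAAgacaaaagugg

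The 2 sites of Marcksl1 are shown in the same way, for comparison with Marcks site 2, whose window has the same 7 letters as Marcksl1 site 1.

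Marcksl1 site 1: acuucuuguugUCUUUUUuuuucccccuc
Marcksl1 site 2: cccagauuuguACUUUUUuuuuuucuaac

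The windows lie on GRCm38 at chr10:37135991-37135997, chr10:37135544-37135550, chr10:37135314-37135320, chr10:37135193-37135199 and chr10:37134586-37134592 on the minus strand for Marcks sites 1 to 5. Those of Marcksl1 sites 1 and 2 lie at chr4:129515830-129515836 and chr4:129515891-129515897 on the plus strand. Every window held UUU at its centre. The authors listed only windows whose letters scored above a threshold against a weight matrix built from their own CRAC sites. A shared core thus follows in part from that selection. Around this core the flanks differed, since U made up 62.1%, 69.0% and 51.7% of the 29 nt at Marcks sites 1, 2 and 3 but 20.7% at each of sites 4 and 5. For Marcksl1 it was 58.6% and 55.2%. The shared window UCUUUUU was listed 84 times in 79 genes, or 3.23% of the 2598 mRNA windows, whereas that of Marcks site 3 was listed 6 times in 6 genes.

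Read coverage was highest at Marcksl1 site 2, with 109 reads, against a median of 26 over the mRNA windows. Of these reads 36 had a deletion, 33.0% with a 95% Wilson interval of 24.9 to 42.3%. The same position was also listed as an 8-nt window one base longer, with the same 109 reads and 9 deletions, and it is counted as 1 site here. Marcksl1 site 1 had 22 reads, of which 17 had a deletion, a share of 77.3% (56.6 to 89.9%). The median deletion share of mRNA windows was 19.4%. The shares given for both Marcksl1 sites lay above it, but that of the 8-nt window, 8.26% (4.4 to 15%), lay below it. For site 2 the side of the median thus depends on which listed window is used. These shares are descriptions, and whether a site differs from the median was not tested. Intervals cover counting error only, since the libraries were pooled and the total read number behind them is unknown.

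For Marcks, reads were spread over more sites. Site 1 had 49 reads and 5 deletions (10.2%, interval 4.44 to 21.8%), and site 3 had 43 reads and 13 deletions (30.2%, 18.6 to 45.1%). These 2 windows stood above the median coverage of 26 reads, and the other 3 below it. Site 2 had 9 reads with 3 deletions, site 4 had 13 with 6, and site 5 had 18 with 5, and their intervals ran from 12.1 to 64.6%, 23.2 to 70.9% and 12.5 to 50.9%. The shares of Marcks sites 2 to 5 lay above the median share of 19.4%, and that of site 1 lay below it. The intervals of all Marcks sites but site 4 included the median. They too cover counting error only, and whether a site differs from the median was not tested. The deposited list holds no window under 6 reads or 3 deletions, so site 2 stands at the minimum for deletions. The authors' caller gave unadjusted p-values of 0.0338 for Marcks site 3 and 0.106 to 0.377 for the other Marcks sites, and of 0.0337 and 0.00495 for Marcksl1 sites 1 and 2. The match of the window to the authors' weight matrix, a score, ranged from 0.84 at Marcks site 4 to 1.0 at Marcks site 2 and Marcksl1 site 1. Since windows under the authors' score threshold were not listed, high scores were set in part by that selection.

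Summed over its windows, Marcks had 132 reads and 32 deletions and took place 209 by coverage among the 1299 genes with sites. Marcksl1 had 240 reads and 62 deletions and took place 122. The Marcksl1 sums count the reads of its overlapping pair of windows once for each window. With that pair counted once, an alternative chosen after the data were seen, the sums were 132 and 131 reads and the places 196 and 199, so the order of the genes turned. By deletions the places were 123 for Marcks and 35 for Marcksl1, and 114 and 48 with overlapping windows merged. Divided by the mRNA level in control total RNA, coverage was 1.11 reads per CPM for Marcks and 0.542 for Marcksl1, against a median of 0.287. With overlapping windows merged, Marcksl1 came to 0.296 reads per CPM, close to the merged median of 0.283, while Marcks stayed at 1.11. By this ratio the places of Marcks and Marcksl1 among 1279 genes with a CPM value were 242 and 413, and 232 and 619 after merging. At least 5 separate sites, as in Marcks, were listed for 91 genes (7.01%), and 2 or more, as in Marcksl1, for 486 genes (37.4%). Of all protein coding genes with RNA-Seq counts, 9.87% had a listed window.

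The sites were placed differently in the 2 UTRs. In Marcks they began 111, 558, 788, 909 and 1516 nt after the stop codon and ended 1211 nt or more before the annotated transcript end. In Marcksl1 they began at 598 and 659 nt, 61 nt apart, with 149 and 88 nt left to the end. Over 2197 windows placed in 3′ UTRs, the median distance to the annotated end was 834 nt, and 19.9% lay within 200 nt of it, as did both sites of Marcksl1 and none of Marcks.

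**Figure D1:**
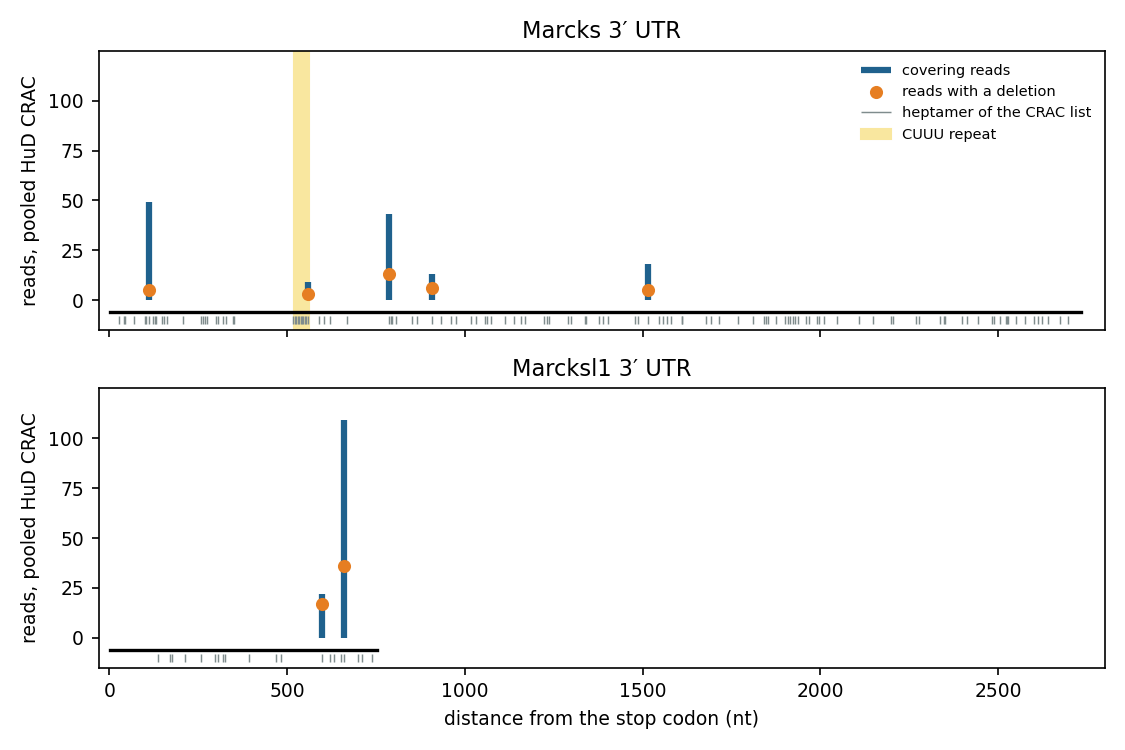
Listed HuD sites along the 3′ UTRs of Marcks (top) and Marcksl1 (bottom), with the distance from the stop codon in nt on the x axis and pooled HuD CRAC reads on the y axis. Bars are covering reads, orange points reads with a deletion, grey ticks the start of every heptamer of the CRAC list, the black line the extent of the UTR and the yellow band the CUUU repeat; the Marcksl1 sites stand close to the end, and that with 109 reads is the highest.

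The letters listed as 7-nt windows anywhere on mRNAs comprised 230 distinct heptamers, and all their positions in the UTRs were counted on the transcript strand, overlaps included. Marcks had 124 such positions, or 45.4 per kb, above the median of 24.3 per kb over all 3′ UTRs and of 33.4 per kb over 1202 UTRs of genes with sites. Marcksl1 had 20, or 26.6 per kb. At least 1 such heptamer occurred in 99.3% of the UTRs, so presence alone separates few genes. Only 5 of the 124 positions in Marcks (4.03%) and 2 of the 20 in Marcksl1 (10.0%) were listed as sites. Because the heptamers came from this list, the listed ones among them are no independent count.

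**Figure D2:**
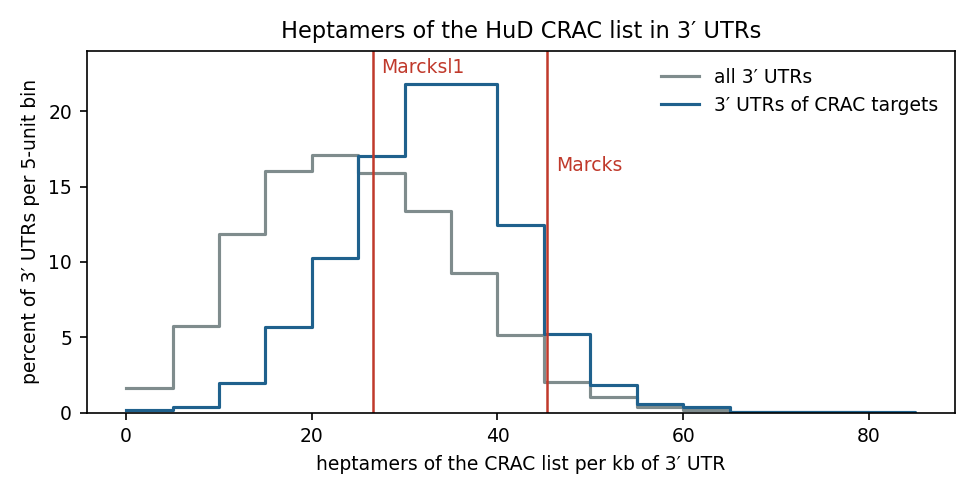
Density of heptamers of the CRAC list in 12335 mouse 3′ UTRs (grey) and in 1202 UTRs of genes with HuD sites (blue), as the percent of UTRs per bin of 5 heptamers per kb. Red lines mark Marcksl1 at 26.6 and Marcks at 45.4 per kb, the latter beyond the bulk of both distributions.

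The tetramer CUUU occurred 45 times in Marcks, or 16.5 per kb, and 8 times in Marcksl1, or 10.6 per kb, against a median of 7.19 per kb. In Marcks, 11 copies followed one another without a gap over 44 nt, 519 to 562 nt after the stop codon. A tandem run of that length occurred in 29 of 12335 UTRs (0.235%), and in 6 of 1202 UTRs of genes with sites. Marcks site 2, with 9 reads, began inside this run at its 3′ edge, and the other 9 heptamers of the CRAC list starting within the run were not listed as sites. In Marcksl1 no CUUU was followed directly by another, and a single CUUU occurs in 95.0% of UTRs. The AUUUA pentamer of AU-rich elements occurred 3 times in Marcks and once in Marcksl1, and 70.7% of UTRs hold it. These matches are descriptions of letters and say nothing on occupancy.

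Marcks mRNA stood higher on polysomes in HuD cells than in control cells with nearly equal means in total RNA. In total RNA, Marcks stood at 108 and 129.5 CPM in control cells and at 114.9 and 123.3 CPM in HuD cells, so the HuD values lay between the control values. In polysomal RNA it stood at 135.9 and 128.9 CPM in control cells and at 195.3 and 185.5 CPM in HuD cells, and the groups did not overlap. The means were 118.7 ± 15.2 and 119.1 ± 5.92 CPM in total RNA and 132.4 ± 4.92 and 190.4 ± 6.94 CPM in polysomal RNA (SD, n = 2 each).

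**Figure D3:**
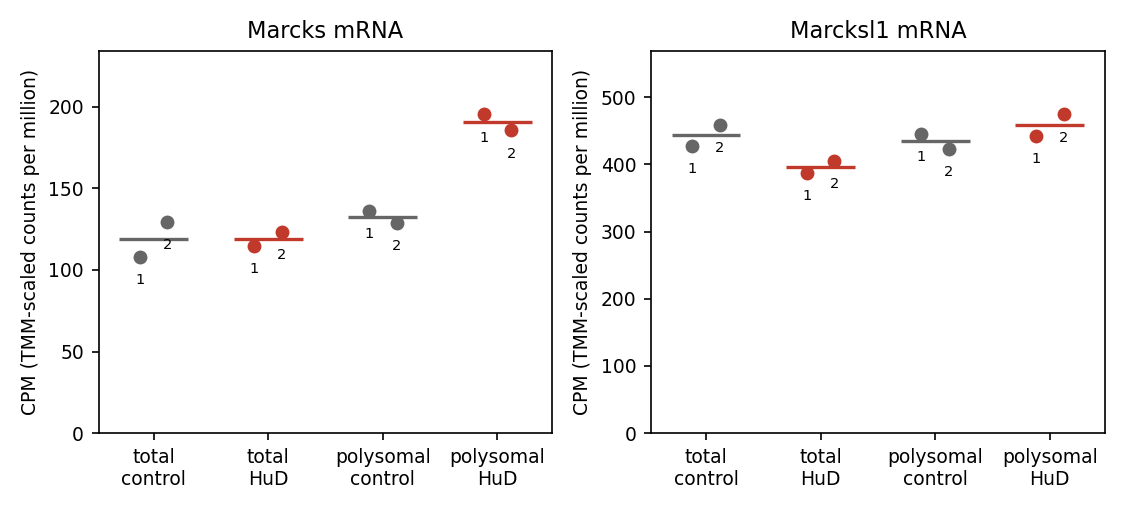
Marcks (left) and Marcksl1 (right) in the 8 RNA-Seq and POL-Seq libraries, in CPM on axes from 0. Points are libraries with their replicate number, lines are group means, grey is control and red HuD; the Marcks points of polysomal HuD libraries, 195.3 and 185.5 CPM, lie above all its others.

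For Marcks the log2 change with HuD was 0.00 (SE 0.10) in total RNA and 0.52 (SE 0.10) in polysomal RNA, a 1.44-fold difference. The change in translation efficiency (TE, the polysomal level over the total level) was 0.52 on the log2 scale (SE 0.14). The ratio of polysomal to total CPM was 1.26 and 0.996 in the control pairs of same-numbered libraries and 1.70 and 1.50 in the HuD pairs, without overlap. Such ratios did not overlap in the higher direction for 18.6% of the 14906 genes tested, and polysomal values did not for 14.1%. These contrasts led to the choice of Marcks, and nothing is read from its place among them. The TE value moved with the 2 control libraries of total RNA, since it was 0.64 without the first and 0.38 without the second.

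Marcksl1 was the more abundant mRNA, and no change with HuD passed the test. Its total RNA level was 427.7 and 458.4 CPM in control cells and 387.2 and 404.5 CPM in HuD cells, lower in both HuD libraries. In polysomal RNA it was 445.5 and 423.1 CPM in control cells and 442 and 474.3 CPM in HuD cells, with overlap. Thus the group means were 443 ± 21.7 and 395.9 ± 12.2 CPM in total RNA and 434.3 ± 15.8 and 458.2 ± 22.9 CPM in polysomal RNA (SD, n = 2 each).

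The log2 change of Marcksl1 was -0.16 in total RNA (SE 0.09, 95% interval -0.36 to 0.03, adjusted p = 1.00 in edgeR's quasi-likelihood test). In total RNA 16.7% of genes did not overlap in the lower direction. In polysomal RNA the change was 0.08 (SE 0.09, interval -0.12 to 0.27, adjusted p = 0.969). The change in TE was 0.24 (SE 0.12, interval -0.04 to 0.52), with an unadjusted p of 0.0839 and an adjusted p of 1.00 in the same test. The polysomal to total ratios were 1.04 and 0.923 in control pairs and 1.14 and 1.17 in HuD pairs, without overlap. The upper limit of the interval for TE, 0.52, stands next to the value of Marcks, and whether the 2 genes differ was not tested. At an adjusted p under 0.05, 0% of genes were called for TE, for total RNA and for polysomal RNA. At an unadjusted p under 0.05, edgeR gave 61 genes (0.409%) higher and 85 (0.57%) lower for TE, 394 genes (2.64%) for total RNA and 622 (4.17%) for polysomal RNA, and DESeq2 called 0, 1 and 3 genes after adjustment.

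**Figure D4:**
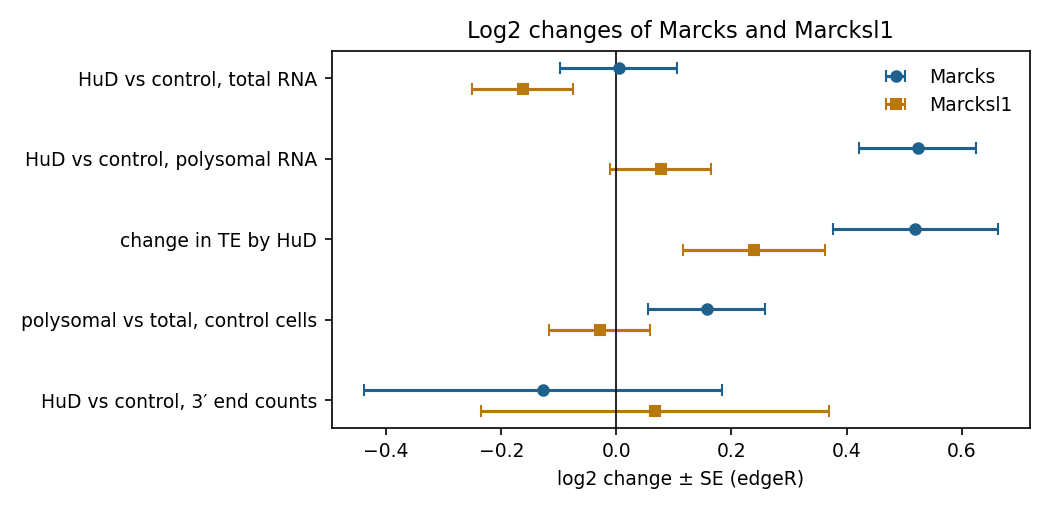
Log2 changes of Marcks (blue circles) and Marcksl1 (orange squares) in 5 comparisons, from edgeR, with bars of 1 SE on each side and a line at 0. For Marcks the polysomal and TE values with HuD stand at 0.52, and those of total RNA and 3′ ends lie within 1 SE of 0.

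Between polysomal and total RNA of control cells alone, Marcks stood 0.16 higher on the log2 scale in polysomal RNA (SE 0.10), with values that overlapped. This too is a description, since the choice of Marcks used these libraries. It rested on single libraries of total control RNA, being 0.03 without the first and 0.29 without the second. For Marcksl1 the log2 change was -0.03 (SE 0.09, interval -0.23 to 0.17, adjusted p = 0.907, edgeR), in the control libraries that also enter its change in TE. It did not pass the test, and 0.174% of all genes did, in either direction.

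Per length of transcript, Marcksl1 was the higher of the 2 mRNAs in every group. In control total RNA its level was 276 ± 13.5 FPKM (CPM per kb of transcript, SD, n = 2), above 98.3% of 12923 genes, and that of Marcks was 29.3 ± 3.76 FPKM, above 77.2%. The ratio of the FPKM means was 9.41 in total RNA of control cells and 8.38 in that of HuD cells. On polysomes it was 8.28 in control cells and 6.07 in HuD cells, the lowest of the 4 groups.

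Over the 8 libraries, the genes with a pattern of log2 CPM most like that of Marcks, among 9701 others at a mean of 10 CPM or more, were B230219D22Rik (Pearson r 0.978), Iffo2 (0.975) and Cept1 (0.971). For Marcksl1 they were Mlf2 (0.981), Cops7a (0.980) and Rab5c (0.965). The 2 family members had an r of 0.631 with each other. These r values describe 8 libraries that fall into 4 groups and share their scaling.

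Each gene was listed with 1 3′ end, at position 37133375 for Marcks and 129515985 for Marcksl1, as were 65.5% of the 9621 genes. A shift between ends could therefore not be measured for either. Marcks had 41, 49 and 42 reads at its end in control libraries and 25, 56 and 35 in HuD libraries. Scaled, these were 2.59, 3.56 and 2.67 CPM in control cells and 1.86, 3.84 and 2.32 CPM in HuD cells. The highest and the lowest value both came from HuD libraries, so the groups overlapped.

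For Marcksl1 the reads were 138, 151 and 91 in control libraries and 88, 180 and 116 in HuD libraries. That corresponds to 8.71, 10.98 and 5.78 CPM in control cells and 6.54, 12.35 and 7.70 CPM in HuD cells, again with overlap. The log2 change was -0.13 for Marcks (SE 0.31, interval -0.83 to 0.57, adjusted p = 0.995) and 0.07 for Marcksl1 (SE 0.30, interval -0.62 to 0.75, adjusted p = 1.00), both by edgeR. In this comparison 0.052% of genes were called. These intervals, from the fit without pairs of libraries, are wide enough to hold a change of the size seen for Marcks on polysomes. With same-numbered libraries as a block, the changes were -0.16 (SE 0.23) for Marcks and 0.06 (SE 0.17) for Marcksl1. The SE was thus smaller for both, so the width depends on whether the pairs are used. The statement on a change of the size seen on polysomes is made for the fit without pairs only. It does not carry over to the fit with the block, whose intervals are narrower and are not given here.

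**Figure D5:**
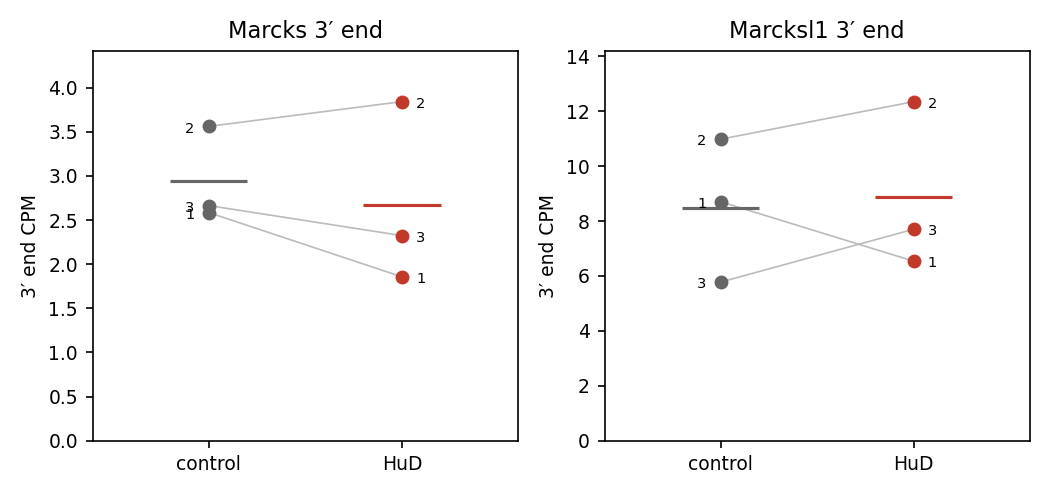
Scaled 3′ end counts (CPM, axes from 0) of Marcks (left) and Marcksl1 (right) in 3 control (grey) and 3 HuD (red) libraries. Points are libraries with their replicate number, short lines are means and thin lines join equal numbers; replicate 2 is the highest in both groups for both genes.

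Both 3′ ends had few reads for mRNAs of this level. The 3′ end CPM over the total RNA CPM in control cells was 0.0248 for Marcks and 0.0192 for Marcksl1, against a median of 0.508 over 9403 genes, which put them at the percentiles 2.27 and 1.46. The counted reads started within 10 nt of a listed end. RefSeq places the Marcks transcript end 132 nt further downstream than the annotation of the listed end and that of Marcksl1 4 nt upstream. Whether these positions bear on the low counts was not tested.

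The genes next to the family members also differed in spacing. Marcksl1 ends 118 nt from the end of Hdac1, which encodes a histone deacetylase and runs on the other strand, and for Marcks the nearest such neighbour considered, Hdac2, is 131.5 kb away. In polysomal RNA the log2 change of Hdac1 was -0.32 (unadjusted p = 0.0228, edgeR) and did not pass after adjustment. Hdac2 had 2 HuD windows with 80 reads and 7 deletions, summed without merging overlaps, and 1 covering read in control cells. RefSeq lists 5 pseudogenes of Marcksl1 and 0 of Marcks, none of them in the count tables, and how reads shared with them were counted is not known.

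The partners of the MARCKS proteins were described from lists of genes, and no gene of any list passed the test in any comparison. Of the growth-associated partners and adducins, 4 of 5 were tested and 0 had a HuD site. They include Basp1, a membrane protein that like MARCKS binds PIP2, whose polysomal change of 0.29 had an unadjusted p of 0.0343 in edgeR. The median TE change of these genes was -0.06, beside -0.01 over all genes. Among 7 protein kinase C isoforms tested of 9, the kinases that phosphorylate MARCKS, the median was 0.00, and Prkci had a site with 10 reads.

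Calm3, a gene of calmodulin, which binds the effector domain, had a site with 238 reads of which 3 had a deletion. The 4 enzymes of N-myristoylation, which attach the lipid anchor or free the N terminus for it, had a median TE change of -0.03. Of these, Metap2 had 2 windows with 208 reads and 10 deletions, summed without merging overlaps. The 15 kinases, phospholipases and phosphatases that make or use PIP2 had 0 sites and a median TE change of 0.00. In that list Pip4k2a was 0.24 higher in polysomal RNA (unadjusted p = 0.0262) and Synj1 0.18 higher in total RNA (unadjusted p = 0.0482), both in edgeR and neither after adjustment. For 3′ ends, 2 of the partners, 4 of the kinases C, 4 enzymes of N-myristoylation and 11 of the PIP2 genes were tested, with 0 calls.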

How the data were processed

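Raw counts per gene in total and polysomal RNA were made by the authors with STAR 2.5.3a on GRCm38.p4. The 3′ end table deposited by the authors holds counts near known polyadenylation sites. CRAC reads were aligned by the authors with TopHat2 2.0.14 and replicates pooled, with control signal penalised. The deposited CRAC table gives, per window, coverage (a signal in reads), the count of deletions, a p-value and a weight matrix score. The pooled columns are the authors' values with no SD. Members and gene lists were chosen with earlier results of these data known. Genes named are the members, Elavl4, listed partners and neighbours, markers, and the 3 genes most like each member.

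Windows on the same position were reduced to 1, and those listed under several genes were given to 1. Listed positions were moved 1 nt (plus strand) or 2 nt (minus strand) downstream, where each sequence matched GENCODE vM21 within 6 nt at 1 place only. UTRs are the longest 3′ UTR per gene of at least 100 nt. Sequences come from the reference files, and positions are on GRCm38. Lines of the 3′ end table sharing a gene and position were reduced to 1 end with the highest count.

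Tests on counts used edgeR 4.0.16 under R 4.3.3 (TMM, filterByExpr, quasi-likelihood test, Benjamini-Hochberg over all genes tested, threshold 0.05), two-sided. TE change is the interaction term between fraction (polysomal or total) and HuD, with all 8 libraries in 1 fit. Tables and figures used Python 3.11.15, pandas 2.3.3, statsmodels 0.14.6 and matplotlib 3.10.9. Alternatives were RLE scaling, no filter on low counts, DESeq2 1.42.0, a replicate block, and leaving out each library. The procedure was tested on simulated data: for TE over 14848 genes, recovery was 95% at a 2-fold and 99% at a 4-fold change, with 0.0683% of unchanged genes called. For 3′ ends over 9621 genes these were 82%, 100% and 0.0531%. The changed genes all had a simulated mean above 10 CPM, and no effect shared by same-numbered libraries was simulated. No change under 2-fold was simulated either. These shares therefore check the procedure and do not give the recovery to be had in the real libraries.

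Same-numbered 3′ end libraries deviated together (r across genes 0.400, 0.657 and 0.515, each library best with its own number), so the numbers were taken as pairs from the data, the labels naming no shared batch. The block changed no call of either member. Usage of 3′ ends within a gene was not tested, because each member has 1 listed end. Results for 2 listed genes are not reported here.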

Additional observations from a re-analysis of the deposited data

How the results depend on the processing

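The log2 changes of Marcks and Marcksl1 were computed under 116 alternatives over 5 comparisons, and 108 kept their direction. With only 2 libraries per group, and pooled CRAC values, single libraries set the limits. Without each library in turn, the Marcks change ranged from 0.38 to 0.64 for TE, and from -0.12 to 0.14 for total RNA (without the first and the second control library of total RNA). The Marcks change between polysomal and total control RNA ranged from 0.03 to 0.29 without the same 2 libraries. The Marcksl1 change between polysomal and total control RNA ranged from -0.078 to 0.022, turning without polysomal control 2 (0.00056) and total control 2 (0.022). For 3′ ends, the Marcks change ranged from -0.48 to 0.072, turning without control 2 (0.030) and HuD 1 (0.072), and that of Marcksl1 from -0.25 to 0.29, turning without control 3 (-0.15) and HuD 2 (-0.25). No Marcksl1 change was called under any of these.

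The number of genes called ranged from 0 to 47 for TE, 0 to 1 for total RNA, 0 to 372 for polysomal RNA, 0 to 2145 for polysomal against total control RNA and 2 to 14 for 3′ ends when single libraries were left out. The values 47, 372 and 2145 arose without polysomal control 1. Main counts were 0, 0, 0, 26 and 5. The 5 genes were Ccnd2, Rufy3, Nqo1, Armcx2 and Dap, named after their values were seen. DESeq2 called 1 gene in total RNA (Elavl4), 3 in polysomal RNA (Elavl4, Arxes2 and Marcks), 67 between polysomal and total control RNA and 35 for 3′ ends. Marcks also passed there without polysomal control 1. It had been chosen with that contrast known, so these calls are no test of it. The cause of these differences was not tested.

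With the replicate block, 41 genes were called between polysomal and total control RNA and 217 for 3′ ends. The blocked log2 changes were 0.52 (TE) and -0.16 (3′ ends) for Marcks and 0.24 and 0.06 for Marcksl1, with no call for either. In RNA-Seq and POL-Seq the same-numbered libraries share only a number, with deviations at r 0.188 to 0.387 across genes in group pairs of 2.

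The place of Marcks by CRAC was 359 by its most covered window and 123 by deletions (114 with overlapping windows merged). That of Marcksl1 was 35 by deletions, 413 by coverage over CPM and 199 with overlapping windows merged, or 48 by deletions and 619 by coverage over CPM after merging. Alternatives for 3′ end usage were not run, since each gene has 1 end. The read total of the CRAC libraries is unknown and limits any statement on windows absent from the list.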
